A study of Mus musculus with 48 samples.

Results

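The step from endocrine progenitors to beta cells in the fetal mouse pancreas was read from 7 of the 48 arrays of the series. The members are all arrays titled as endocrine progenitors (EPs) of E15.5 (n = 3) and as beta cells of E15.5 (n = 4), a day called E15 from here on. The labels give all 7 as wild type with a CD-1 strain background, and both groups carry a fluorescent reporter: EPs came from embryos with a Neurog3-driven eGFP transgene, and E15 beta cells from MIP-GFP embryos, in which the mouse insulin promoter drives GFP. The eGFP signal alone does not separate EPs from cells that have already made hormone, and the EP gate therefore also used surface antigens. The paper describes EPs as enriched for CD133 (Prom1) and CD49f (Itga6), and the antibodies used on E15 cells also included CD24 (Cd24a). Each array holds RNA from a pool of embryos, and the labels tie no array to one litter. The p-values measure the spread between replicate arrays, shared over all 13 populations of the series and not taken from these 7 arrays alone. Reporter, gate and cell type differ together between the groups and cannot be told apart.

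Endocrine cells of the pancreas arise from duct-like epithelium in which the basic helix-loop-helix (bHLH) factor Neurog3 is switched on for a short time. Neurog3 activates factors such as Neurod1, Pax4 and Insm1, the cell leaves the cell cycle and the epithelium, and it then takes on a hormone. A beta cell has to build insulin granules, fold large amounts of proinsulin in the endoplasmic reticulum (ER), and later couple glucose uptake to secretion.

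Expression is given as the deposited log2 RMA level of a gene's brightest probe, on a scale where a difference of 1 is a 2-fold change. Levels of different probes are not comparable as amounts. A gene was called, and is said to have risen or fallen, at an adjusted p under 0.05 from limma with a difference of at least 1. All differences are E15 beta cells minus EPs. Of 32078 probes tested 3024 were called, which is 9.43%, with 5.62% up and 3.8% down. By gene, 970 of 14485 rose (6.7%) and 660 fell (4.56%), and the median difference over all genes was 0.01. The list counts below are to be read beside these shares. The arrays of the groups did not overlap for 43.7% of genes, with the beta arrays higher in 23.7% and lower in 20%. Among the 1630 called genes 1604 had no overlap, so lack of overlap adds little to a call. Of the risers 436 had an EP mean of 100 or less on the linear scale (6.64 in log2), and 209 of the falling genes had such a beta cell mean. In that range the array measures poorly, so those differences are uncertain in size. Arrays correlated at 0.977 to 0.993 within EPs, 0.979 to 0.989 within E15 beta cells and 0.937 to 0.958 between them. An exact two-sided permutation test of 3 against 4 arrays cannot give a p below 0.0571, so single genes rest on the model across all probes.

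Of the genes used to obtain the cells, Neurog3, Prom1 and Ins2 differed in the direction of the labels, which describes the sort and is no finding. Neurog3 stood at 13.34, 13.41 and 13.44 in the EP arrays and at 11.48, 11.46, 10.72 and 10.98 in the beta arrays. Its difference was -2.24, and the other probe for the gene was called in the same direction. Prom1, the antigen CD133, was at 12.97, 13.11 and 13.20 in EPs and between 9.87 and 10.05 in beta cells. Of the other antigens stained at E15, Itga6 differed by -0.04 and Cd24a by -0.79, and neither was called. Ins2, one of the mouse insulin genes, was at 12.31, 12.09 and 12.31 in EPs and at 14.11, 14.33, 14.37 and 14.49 in beta cells, a difference of 2.09. The EP arrays, although gated as hormone-negative, thus held insulin transcript well above the 6.86 ± 0.53 (SD, n = 3) of E15 progenitors. The paper states that very abundant transcripts, such as those of insulin and glucagon, can saturate array probes. Differences at such levels may therefore be understated. G6pc2, an islet glucose-6-phosphatase that was not used in the sort, was at 8.52, 7.98 and 8.18 in EPs and at 11.86, 12.05, 12.03 and 12.20 in beta cells. G6pc2 rose by 3.81 (standard error 0.26, adjusted p = 2.4e-14).

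**Figure D1:**
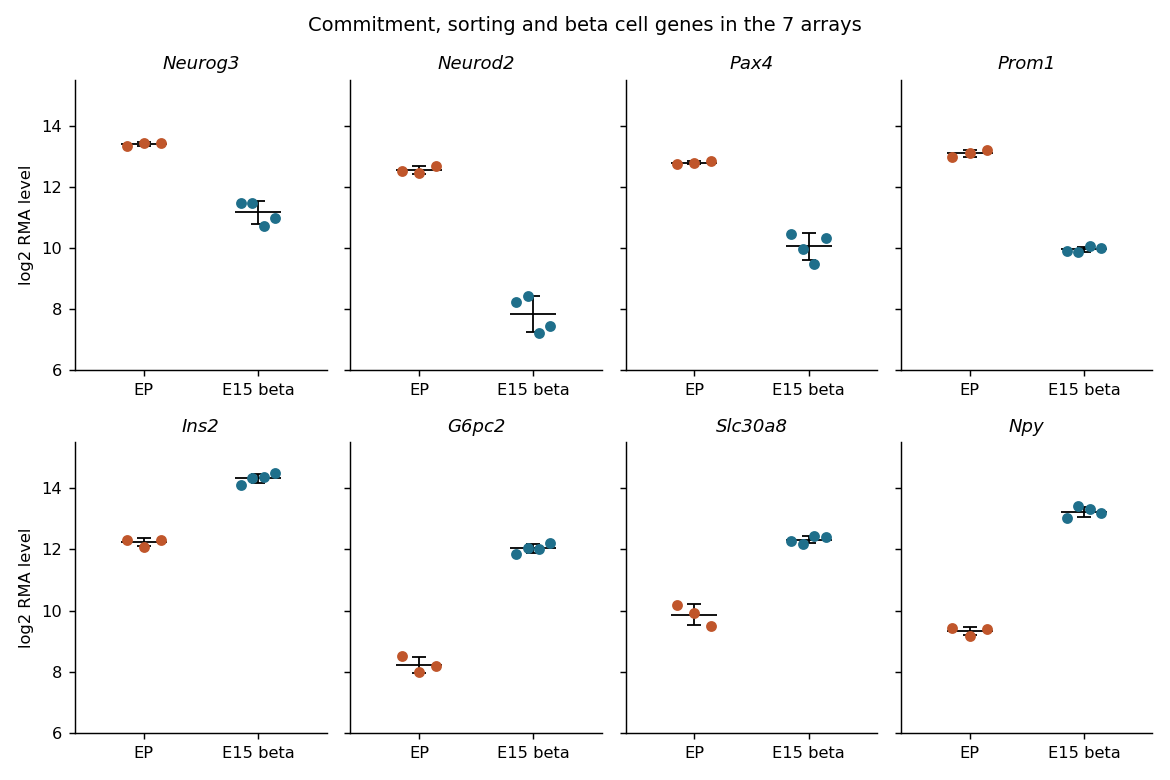
Log2 RMA levels (y axis) of 8 genes in the 3 EP arrays and 4 E15 beta arrays (points); the horizontal bar is the group mean and the whiskers the SD. Neurog3, Neurod2, Pax4 and Prom1 are lower and Ins2, G6pc2, Slc30a8 and Npy higher in every beta array than in every EP array. All 8 are called genes, for which overlap is rare.

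The 12 largest falls included the transcription factor genes Tfap2c, Neurod2 and Nhlh1. Tfap2c, which encodes the transcription factor AP-2 gamma, was at 10.36, 10.41 and 10.23 in EPs and at 4.88, 5.05, 4.34 and 4.45 in beta cells. It fell by 5.65 (standard error 0.23, adjusted p = 1.2e-20), to a level below 6.64. Neurod2, a bHLH factor best known from neurons, was at 12.53, 12.44 and 12.69 in EPs and at 8.22, 8.43, 7.22 and 7.46 in beta cells (difference -4.72, standard error 0.50, adjusted p = 1.7e-09). Nhlh1, another neuronal bHLH factor, was at 10.32, 10.33 and 10.49 and then at 6.78, 6.31, 5.89 and 5.63 (difference -4.23, standard error 0.25). The 12 were taken only from called genes whose arrays do not overlap, so the lack of overlap in these 3 factors follows from the selection. The other 9 of the 12 largest falls covered membrane and extracellular proteins and enzymes. Trpv6, an epithelial calcium channel, fell by 4.35, Sema3g, a secreted semaphorin, by 4.27, Lipg, a secreted lipase, by 4.22, and Padi1, a peptidylarginine deiminase, by 4.01. Lynx1, a modulator of nicotinic receptors, fell by 3.84. Sdr16c6 (-4.18), Upk3bl (-3.89), Krtap17-1 (-3.88) and Ttll6 (-3.60) complete the group. Ttll6, a tubulin polyglutamylase, was uneven, with 5.32 in beta array 2 and 7.64 to 8.06 in the other beta arrays.

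The 12 largest rises included receptor and peptide genes, and the leading gene, A930009L07Rik, has no assigned function. It was at 6.05, 4.70 and 5.13 in EPs and at 10.42, 11.28, 9.99 and 11.08 in beta cells (difference 5.40, standard error 0.36, adjusted p = 1.5e-14). Syndig1l, related to a synapse differentiation protein, rose from a mean of 6.63 ± 0.39 (SD, n = 3) to 11.22, 11.66, 11.31 and 11.42. Npy, the gene for neuropeptide Y, went from 9.43, 9.17 and 9.39 to 13.04, 13.41, 13.32 and 13.19. Lack of overlap between the groups was a condition of the selection here too. Gip, an incretin peptide gene, rose by 3.70, Ppp1r1a, an inhibitor of protein phosphatase 1, by 3.77, and P2ry1, an ADP receptor, by 4.01. Bace2, a membrane protease, rose by 3.71 with all 5 of its probes called. Tmem215 rose by 4.10, Gm17767 by 4.15 and Coch, a secreted matrix protein, by 3.69. Aplnr, the apelin receptor, was at 3.20, 3.51 and 3.45 in EPs and at 8.11, 8.13, 9.09 and 9.39 in beta cells, a rise of 5.29 (standard error 0.56). Aplnr is also a gene of endothelium, and its level was higher still in E15 acinar cells (12.27) and in E15 Neurog3-null cells (9.99), where Ins2 was at 7.22 and 6.48.

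**Figure D2:**
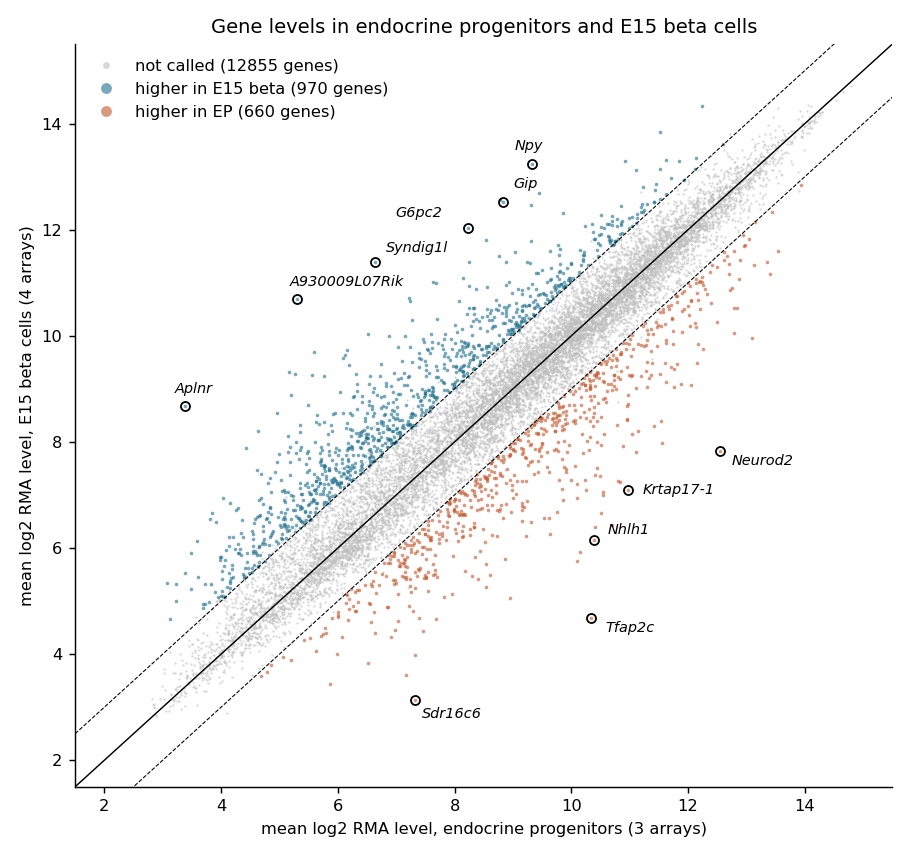
Mean log2 RMA level of 14485 genes in EPs (x axis, 3 arrays) and E15 beta cells (y axis, 4 arrays); the solid line marks equal levels and the dashed lines a difference of 1. The 970 called genes above the diagonal and 660 below it are coloured, and 11 genes with large differences are named.

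The promoters of Neurod2 and Nhlh1 are shown because both bHLH genes are among the 12 largest falls, and bHLH proteins bind E-boxes. The sequences are RefSeq's, from GRCm38.p6, 5' to 3' on the gene's strand and ending before its start, with the E-box CAGATG in capitals.
Neurod2 (chr11:98329713-98329808, minus strand): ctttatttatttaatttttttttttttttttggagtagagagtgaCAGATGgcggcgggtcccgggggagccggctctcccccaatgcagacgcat
Nhlh1 (chr1:172057749-172057844, minus strand): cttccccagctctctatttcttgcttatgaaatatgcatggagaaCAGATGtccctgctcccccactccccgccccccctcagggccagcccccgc
On either strand (CAGATG or CATCTG), this E-box lies in the 250 bases before the start in 4 of the 9 largest falls with a promoter entry (Neurod2, Nhlh1, Sdr16c6 and Upk3bl) and in 2 of 7 largest rises with one (G6pc2 and Tmem215). Of all 27025 genes with an entry 16.3% hold it. A match describes the letters and shows no binding.

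Of the endocrine commitment factors, 20 of 24 listed genes were tested. Of these 7 fell (35%, against 4.56% of all genes) and none rose, with a median of -0.51. The target genes of Neurog3 did not move as one. Pax4, a paired-homeobox factor of the beta and delta lineages, was at 12.74, 12.77 and 12.85 in EPs and at 10.44, 9.95, 9.46 and 10.34 in beta cells (difference -2.74, adjusted p = 1.3e-12). Amotl2, an angiomotin family scaffold, fell by 2.97, Sox4, an SRY-related factor, by 2.31 with all 6 probes called, and Hes6, a bHLH factor opposing Hes1, by 1.11. In contrast, Neurod1 was at 12.93, 13.07 and 12.93 and then at 12.87, 12.75, 12.72 and 12.85, a difference of -0.18 that was not called. Insm1 (-0.48), Nkx2-2 (-0.45), Myt1 (-0.47) and St18 (-0.36) were not called either. Among genes whose mutants the study examined, Bcl11a, a zinc finger repressor, fell by 1.64 from 9.82, 10.08 and 10.18 to 8.60, 8.57, 8.43 and 7.95. Prdm16 differed by -0.87 (adjusted p = 0.024), under the 2-fold threshold, Runx1t1 by -0.57 and Gfi1 by 0.09. Etv1 was not analysed here, because its probes are shared with another gene.

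Of 13 tested of 16 listed factors of the beta cell fate 3 rose, which is 23.1% against 6.7% of all genes, and the median was 0.44. None fell, but 1 did without beta array 3. Pdx1, which drives the insulin gene, was at 11.62, 11.45 and 11.46 in EPs and at 12.54, 12.55, 12.59 and 12.62 in beta cells (difference 1.06, adjusted p = 9.6e-05). With each array centred on its median the difference was 1.00 and fell just short of the threshold. Mnx1, a homeobox factor of beta cells, rose by 1.43. Bhlha15 (Mist1), a bHLH factor of secretory cells, rose by 1.53. The paper names Mist1 as a regulator of exocrine differentiation, so the share of 23.1% is not made of beta cell factors alone. Nkx6-1, at 12.77, 12.62 and 12.98 in EPs, covered the same range as in beta cells (12.76, 12.85, 12.67 and 12.96). Isl1 differed by 0.05 and Pax6 by 0.53, neither called. Of 8 factors of alpha, delta and other islet lineages, only Pou3f4, an alpha cell POU factor, was called, with a fall of 1.19, while Hhex, a delta cell factor, differed by -1.22 at adjusted p = 0.09 and Irx2 by 0.47.

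Of 17 listed hormone and peptide genes 15 were tested, and 4 rose (26.7%): Npy, Ucn3, Ins2 and Sst. Ucn3, urocortin 3, a late beta cell marker, was near the low end of the scale in EPs (5.80, 5.25 and 5.42) and at 8.42, 8.50, 8.50 and 9.38 in beta cells (difference 3.21). Sst, the somatostatin gene of delta cells, went from 9.71, 9.82 and 9.90 to 12.18, 11.26, 11.57 and 11.51. The delta cell hormone thus rose beside insulin in cells sorted by an insulin reporter. Gcg, the glucagon gene, was high in both groups, at 13.93, 13.99 and 13.74 in EPs and 14.08, 14.12, 13.99 and 14.14 in beta cells, a difference of 0.20. Its probe may be saturated at these levels, so the small difference does not show equal amounts. Iapp (0.75), Ppy (0.85) and Pyy (0.23) were not called. Ghrl, the ghrelin gene, was at 13.85 to 13.92 in EPs and 12.53 to 13.08 in beta cells, and Cck at 11.25 to 11.53 and 8.94 to 9.97. Both differed without overlap, but their adjusted p of 0.15 and 0.064, with the spread taken over all 48 arrays, missed the threshold. No gene of this list fell with all 48 arrays fitted, but 3 fell with the 7 arrays alone, 2 with the E15 arrays, 2 by the methods' t-test, 3 with array weights and 3 with the replicate block. In bulk RNA, fewer cells of a type and less RNA per cell cannot be told apart.

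The glucose sensing and maturation list held the highest share of rises among the lists of endocrine function. Of 15 tested of 18 listed genes 11 rose (73.3%) and none fell, with a median of 2.27 against 0.01 over all genes. Slc2a2, the glucose transporter GLUT2, was at 9.12, 9.16 and 9.66 in EPs and at 12.32, 12.28, 12.66 and 12.59 in beta cells (difference 3.15, adjusted p = 1.1e-12). Slc30a8, the zinc transporter of insulin granules, went from 10.17, 9.93 and 9.49 to 12.28, 12.17, 12.43 and 12.41. Sytl4, the granule protein granuphilin, went from 9.61, 9.28 and 9.46 to 12.67, 12.53, 12.76 and 12.77. These products serve glucose entry or the granule. Trpm5, a calcium-activated cation channel, rose by 2.83, Pcx, pyruvate carboxylase, by 2.27 and Nnat, neuronatin, by 2.32. The subunits of the ATP-sensitive potassium channel were not called. Kcnj11 differed by 0.20, and Abcc8, at 12.58 to 12.77 in EPs and 13.36 to 13.57 in beta cells, by 0.78.

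Of 19 tested genes of the secretory granule and prohormone processing 10 rose (52.6%) and none fell (median 1.02). Scg2, a granin, went from 10.95, 11.13 and 10.66 to 13.22, 13.24, 13.30 and 13.39 (difference 2.37, adjusted p = 2.4e-08). Ptprn, the granule membrane protein IA-2, rose by 2.22, Vgf, a granin-like precursor, by 1.62, and Slc18a1, a vesicular monoamine transporter, by 1.54. Pcsk1, the convertase that begins proinsulin cleavage, rose by 1.20. Chga (0.44), Chgb (0.31) and Cpe (0.26) were already above 13 in EPs and were not called. Of 22 exocytosis genes 6 rose (27.3%) and none fell, among them the small GTPases Rab3b (1.81), Rab27a (1.44) and Rab3a (1.28) and the SNARE Snap25 (1.28). Of 22 ion channel genes 3 rose (13.6%) and none fell, or 1 fell when any array but EP array 1 or beta array 2 was left out. The risers were Trpm5, the sodium channel Scn9a (2.14) and the potassium channel subunit Kcnmb2 (1.56). The calcium channel gene Cacna1d differed by 0.63 and was not called.

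Of 17 tested receptor genes 5 rose (29.4%) and 1 fell (5.88%, against 4.56% of all genes). Gcgr, the glucagon receptor, went from 8.74, 8.47 and 8.45 to 9.74, 10.89, 10.89 and 10.51, and Chrm3, a muscarinic receptor, rose by 1.95. Sstr3, a somatostatin receptor, rose by 1.15. Fgfr1, which receives FGF signals from mesenchyme, fell by 1.32. Without EP array 1 or without beta array 2 a second receptor gene fell. Ednrb, the endothelin receptor B, rose by 3.49 on 1 of its 2 probes, with its highest level in beta array 1 (10.52, against 8.79 to 9.54 in the other beta arrays). In the genes of serotonin and amines, 5 of 10 rose (50% against 6.7% of all genes). Maob, a monoamine oxidase, went from 9.08, 9.03 and 8.99 to 11.71, 11.36, 11.64 and 11.61, and Th, tyrosine hydroxylase, rose by 1.66. Tph2 rose by 2.57 from 3.94, 4.10 and 3.72 to a mean of 6.49 ± 0.61 (SD, n = 4), around the limit of 6.64, whereas Tph1 differed by -0.75 and was not called. Of 25 tested genes of glucose metabolism 4 rose (16%) and 1 fell (4%). G6pc2, Slc2a2 and Pcx were among the rises, and Pdk3, a kinase that inhibits pyruvate dehydrogenase, was the fall (-1.45).

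**Figure D3:**
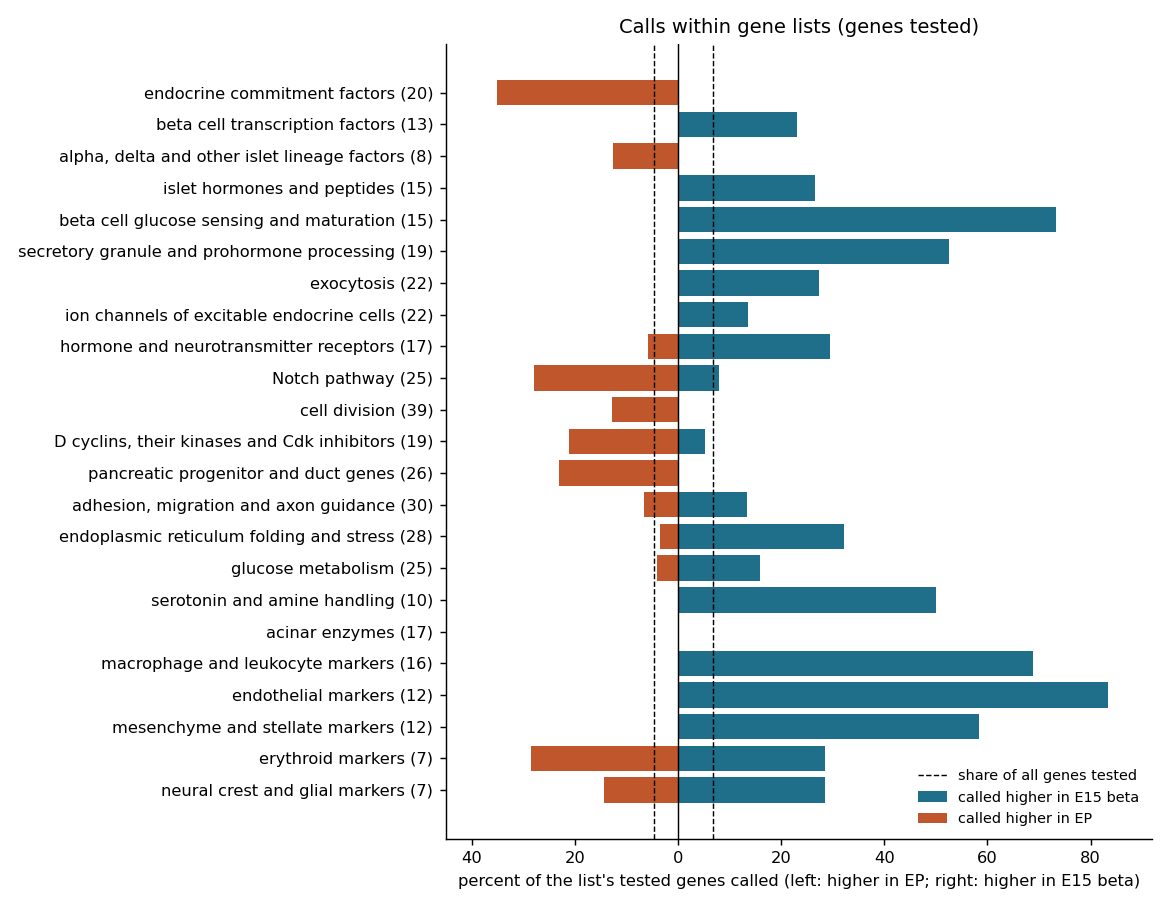
Share of the tested genes of each list (number in brackets) called higher in EPs (left) or in E15 beta cells (right), in percent; dashed lines mark the shares of all genes, 4.56% and 6.7%. Glucose sensing and granule lists lie furthest right among the endocrine lists, the macrophage and endothelial lists reach 68.8% and 83.3%, and the commitment list lies furthest left.

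Some genes of protein folding in the ER rose. Of 28 tested genes 9 rose (32.1%) and 1 fell (3.57%), and the median was 0.69. Sdf2l1, an ER chaperone cofactor, was at 7.91, 7.94 and 8.58 in EPs and at 11.27, 10.72, 11.31 and 11.02 in beta cells (difference 2.94, adjusted p = 4.9e-06). Manf, a secreted ER stress protein, rose by 1.59, Ero1b, the oxidase that renews disulfide isomerase in beta cells, by 1.63, Pdia6, a disulfide isomerase, by 1.40 and Dnajc3, an ER cochaperone, by 1.27. Creld2, an ER protein induced by stress, rose by 1.57 from 11.23, 11.18 and 11.28 to 12.66, 12.76, 12.93 and 12.87. The main chaperones moved less, with differences of 0.48 for Hspa5 (BiP), 0.51 for Hsp90b1 and 0.31 for Calr, none called. Pdia4 was uneven, at 7.18, 6.82 and 7.69 in EPs and at 12.05, 8.58, 9.63 and 8.91 in beta cells. Its difference was 2.56, and the call was lost without beta array 1 (1.81, adjusted p = 0.09) and without EP array 2 (2.35, adjusted p = 0.063). The stress factors Ddit3 (0.20), Atf4 (-0.42) and Trib3 (-0.40) were not called, and Atf3, a stress-induced factor, fell by 3.30. Atf3 was at 10.60, 10.50 and 12.24 in EPs and at 8.87, 8.12, 7.49 and 6.76 in beta cells.

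The promoters of 4 of these risers and of Derl3 hold the ER stress response element, the sequence through which ATF6 and XBP1 act on chaperone genes. They are shown as examples of the element, which was also found in list members that did not rise. The element is CCAAT, any 9 bases and CCACG, or CGTGG, any 9 bases and ATTGG where it lies on the opposite strand. It is in capitals, in RefSeq sequence of GRCm38.p6 ending before the start of the gene. Derl3, a gene of ER-associated degradation outside the list, was added after its values were seen: it rose by 2.76, from 6.06, 6.01 and 6.93 to 8.83, 9.22, 9.15 and 9.17.
Creld2 (chr15:88819475-88819583, plus strand): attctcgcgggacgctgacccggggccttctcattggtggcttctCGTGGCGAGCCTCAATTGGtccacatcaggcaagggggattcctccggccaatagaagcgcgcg
Pdia6 (chr12:17266446-17266554, plus strand): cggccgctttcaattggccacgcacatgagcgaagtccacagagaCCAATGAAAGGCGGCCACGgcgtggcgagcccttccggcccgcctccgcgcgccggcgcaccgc
Dnajc3 (chr14:118937782-118937890, plus strand): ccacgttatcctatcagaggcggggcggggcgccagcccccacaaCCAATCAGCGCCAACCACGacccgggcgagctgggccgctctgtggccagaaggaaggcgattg
Ero1b (chr13:12565637-12565745, plus strand): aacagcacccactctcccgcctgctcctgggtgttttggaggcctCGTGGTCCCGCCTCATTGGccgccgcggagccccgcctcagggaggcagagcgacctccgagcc
Derl3 (chr10:75893197-75893305, plus strand): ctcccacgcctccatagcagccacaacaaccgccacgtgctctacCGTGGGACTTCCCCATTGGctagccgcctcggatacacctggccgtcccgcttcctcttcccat
The element lies in the 250 bases before the start in 4 of the 7 risers of the list that have an entry, in 4 of the 18 other list members with one (Hspa5, Hsp90b1, Calr and Canx) and in 35 of all 27025 genes (0.13%). Manf and Hyou1 have no entry in the table, and Sdf2l1, Pdia4 and Eif2ak3 (a rise of 1.03) do not hold these letters in the window. Genes with and without the element therefore rose, and 4 of the 8 list members that hold it did not. The list was drawn from genes of ER folding and stress, so its share above that of all genes is no result of these data.

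Notch pathway genes fell more often than all genes did. Of 25 tested, 7 fell (28%, against 4.56% of all genes), with a median of -0.26. Rises were near the share of all genes, with 2 of 25 (8%, against 6.7%). Ligands and fringe enzymes, which act on the signal between neighbouring cells, were among the falls. Dll3 was at 8.91, 8.59 and 8.68 in EPs and at 6.97, 6.73, 6.54 and 6.63 in beta cells. Lfng, a fringe glycosyltransferase, fell by 2.51 from 9.76, 9.54 and 10.06 to 7.28, 7.34, 7.27 and 7.20, Mfng, another fringe, by 1.65, the ligand Dll4 by 1.38 and the Numb-like protein Numbl by 1.46. The receptors were not called (Notch1 0.67, Notch2 -0.07, Notch3 -0.26), nor was Hes1, the effector that represses Neurog3 (-0.44). Hey2 rose by 1.85, from 3.69 to 4.49 up to 5.05 to 6.90, with its highest level in beta array 1. Both of its group means lay below 6.64, so the size of its rise is uncertain. The count of rises was 1 without EP array 1, EP array 2, beta array 2 or beta array 4 and 3 without EP array 3.

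Pancreatic progenitor and duct genes fell in 6 of 26 cases (23.1%) and rose in none (median -0.68). Without EP array 3, which had the highest acinar level, 1 rose, and without EP array 1 the falls were 8. Tead2, a Hippo pathway factor, was at 11.75, 11.71 and 11.79 in EPs and at 9.19, 9.10, 8.93 and 8.92 in beta cells (difference -2.72, adjusted p = 1.8e-08). Muc1, an apical mucin of duct cells, fell from 11.21, 11.32 and 11.57 to between 9.08 and 9.41. Onecut1, a factor upstream of Neurog3, fell by 1.36, Sox9, the factor of the progenitor epithelium, by 1.30 (1 of 2 probes called) and the tight junction protein Cldn6 by 1.26. Krt19 (-1.15, adjusted p = 0.15) and Krt8 (-0.65) were not called, and the epithelial genes Cdh1 (0.22) and Epcam (0.02) differed little. Of 30 genes of adhesion, migration and axon guidance 4 rose (13.3%) and 2 fell (6.67%), against 6.7% and 4.56% of all genes. Robo2, a receptor for slit proteins, went from 5.36, 5.14 and 3.56 to 6.50, 7.29, 8.12 and 7.67. Unc5c, a netrin receptor, rose by 1.29, and the cadherin Cdh2 by 1.17, a call lost without EP array 3 (0.91). The count of falls in this list went to 0 without EP array 3 and to 1 without EP array 2, beta array 3 or beta array 4.

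The cell division list was lower in beta cells, with a median of -0.45, but only 5 of 39 genes (12.8%) were called, all down. Mcm2, a subunit of the replicative helicase, was at 10.24, 10.38 and 10.32 in EPs and at 9.15, 9.30, 9.09 and 8.76 in beta cells (difference -1.24), Mcm3 fell by 1.18 and the S phase factor E2f1 by 1.17. Mki67 (-0.43), Top2a (-0.43) and Pcna (-0.04) were not called. The count was 3 without EP array 3 and 3 without beta array 2. Among regulators of cell cycle arrest, some fell and 1 rose. Cdkn1a, which encodes the kinase inhibitor p21, was at 12.64, 12.81 and 12.92 in EPs and at 10.79, 10.38, 10.50 and 10.46 in beta cells (difference -2.26, adjusted p = 9.9e-13). Gadd45a fell by 1.96 from 13.26, 13.29 and 13.51 to 11.67, 11.46, 11.32 and 11.11. Cdkn2b, which encodes p15, rose by 1.45. Cdkn1b (-0.28), Cdkn1c (0.00) and the D cyclins Ccnd1 (0.12) and Ccnd2 (0.31) were not called. This list of 19 had 4 falls (21.1%, against 4.56% of all genes) and 1 rise (5.26%, against 6.7%). The falls were 2 without EP array 3 and 2 without beta array 3.

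In the other populations of the series, the falling genes differed in their level before the EP stage. Of the 660 genes that fell, 372 had an E15 progenitor mean above the EP mean or within 1 below it, a count not made over all genes. These levels share the EP and E15 beta arrays with the comparison above and are given as a description. Neurod2 was at 6.63 ± 0.26 (SD, n = 3) in E15 progenitors, 12.55 ± 0.13 in EPs, 7.83 ± 0.59 in E15 beta cells and 5.41 in adult beta cells. Nhlh1 was at 4.80, 10.38, 6.15 and 3.84 in the same order, and Sdr16c6 at 3.37, 7.32, 3.14 and 3.01. Tead2 and Sox9, in contrast, were at 11.87 and 12.56 in E15 progenitors against 11.75 and 11.47 in EPs. E17 beta cells had 8.54 ± 2.51 (SD, n = 3) for Neurod2, a spread so wide that no order against E15 beta cells can be read. The rising genes parted after E15. G6pc2 was at 12.03 in E15, 12.10 in E17 and 13.37 in adult beta cells, and Ucn3 at 8.70, 9.59 and 12.95. Gip was at 12.52, 9.99 and 5.65 and Coch at 8.88, 7.38 and 4.75 in that order. The E17 minus E15 difference of Coch was -1.51 (adjusted p = 2.9e-05), while that of Gip, -2.53, was not called (adjusted p = 0.055).

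**Figure D4:**
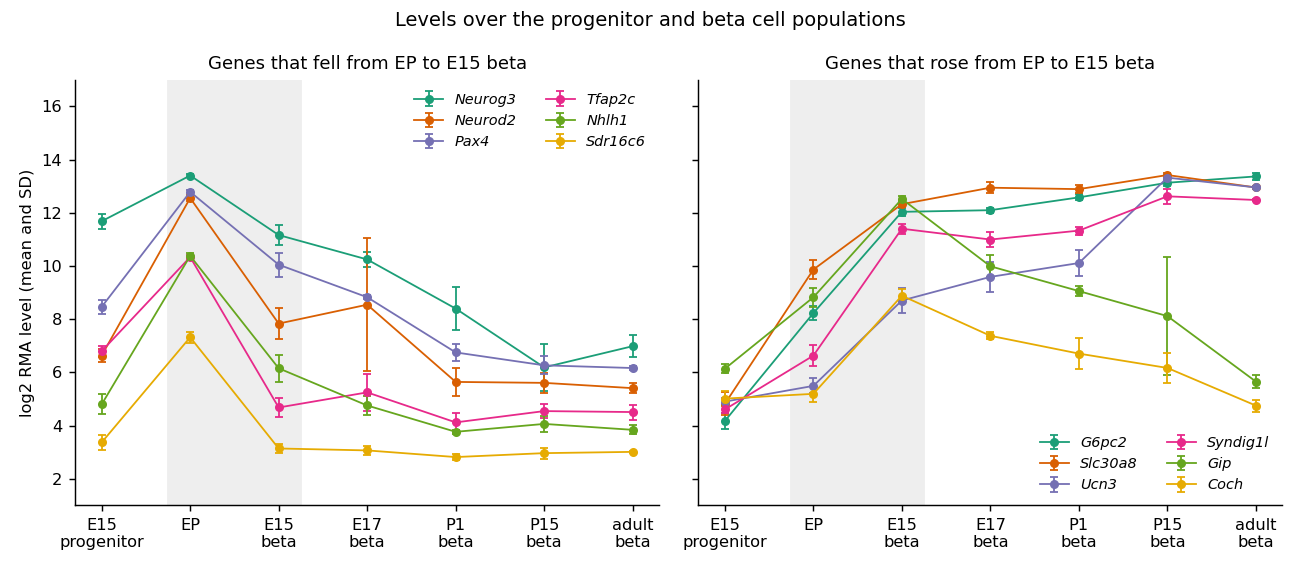
Mean log2 RMA level (y axis; whiskers are the SD over 3 or 4 arrays) in E15 progenitors, EPs and 5 stages of beta cells, for 6 genes that fell (left) and 6 that rose (right) between EPs and E15 beta cells (grey band). The means of the 6 falling genes shown are highest in EPs, unlike many of the other falling genes, and those of Gip and Coch are highest in E15 beta cells, although the E15 to E17 difference of Gip was not called.

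Markers of cells that should be absent from the sort also moved. Of 16 macrophage and leukocyte markers 11 rose (68.8%, median 1.72). Of 12 endothelial markers 10 rose (83.3%, median 1.38) and of 12 mesenchyme markers 7 rose (58.3%, median 1.49), and none of the 3 lists had a fall. The mean macrophage level was at most 6.25 in the EP arrays and 8.89, 7.05, 7.83 and 7.04 in beta arrays 1 to 4. Ctss, a lysosomal protease of these cells, was at 6.09, 5.30 and 5.48 in EPs and at 9.93, 7.61, 8.63 and 7.30 in beta cells. Ptprc, the antigen CD45 by which leukocytes were excluded, was at 3.35 to 3.56 in EPs and 4.10 to 6.19 in beta cells, all below 6.64. It rose by 1.75, a call lost without beta array 1 (1.43, adjusted p = 0.052). Without beta array 1 the macrophage count was 6 of 16. The mean mesenchyme level was 8.61 to 9.25 in EPs and 10.76, 9.63, 9.93 and 10.18 in beta cells, again highest in beta array 1. The mean endothelial level was 4.63 to 4.78 and 5.50, 6.16, 6.65 and 6.71, below 6.64 in most arrays and lowest of the beta arrays in array 1. The part of these cells in the results was not tested. Of the 970 genes that rose, 182 had a higher mean in E15 acinar cells than in E15 beta cells, and 193 a higher mean in Neurog3-null cells. The same was not counted over all genes, so these numbers do not measure the part of other cells.

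Ednrb, Pdia4 and Hey2 were highest in the same beta array as the macrophage and mesenchyme markers, as was Fabp7, a fatty acid binding protein of glia (9.86 against 7.40 to 8.55). So were Sst and Maob, given above, while Slc2a2, G6pc2, Scg2, Creld2 and Pdia6 were highest in other beta arrays. Of all 970 genes that rose, 304 were highest in beta array 1 (31.3%), 219 in array 2, 187 in array 3 and 260 in array 4. Acinar enzymes did not separate the groups, since limma called none of 17, none had an unadjusted p under 0.05, the methods' t-test called none and the arrays overlapped for all. They were uneven among EPs, with mean levels of 7.98, 8.78 and 10.50 in arrays 1 to 3 and 8.84 to 9.51 in beta cells, and Cela3b, an elastase, was at 9.19, 10.29 and 12.36 in EPs. Erythroid genes gave 2 rises and 2 falls among 7 (28.6% each). The rises were 1 without EP array 1 and 0 without EP array 2, EP array 3, beta array 2 or beta array 3, and the falls 1 without EP array 3, beta array 3 or beta array 4. Of 7 neural crest and glial markers 2 rose (28.6%) and 1 fell (14.3%). Immediate early genes fell in 3 of 14 cases (21.4%), including Atf3 and Jun (-1.45), while Fos (-0.10) and Egr1 (-0.44) were not called. Limma called none of 8 housekeeping genes (1 with an unadjusted p under 0.05) and none of 4 sex-linked genes (0 with one), and neither did the methods' t-test. Xist was at 7.87 in beta array 3 and at 12.31 to 12.65 in the other 6 arrays.

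**Figure D5:**
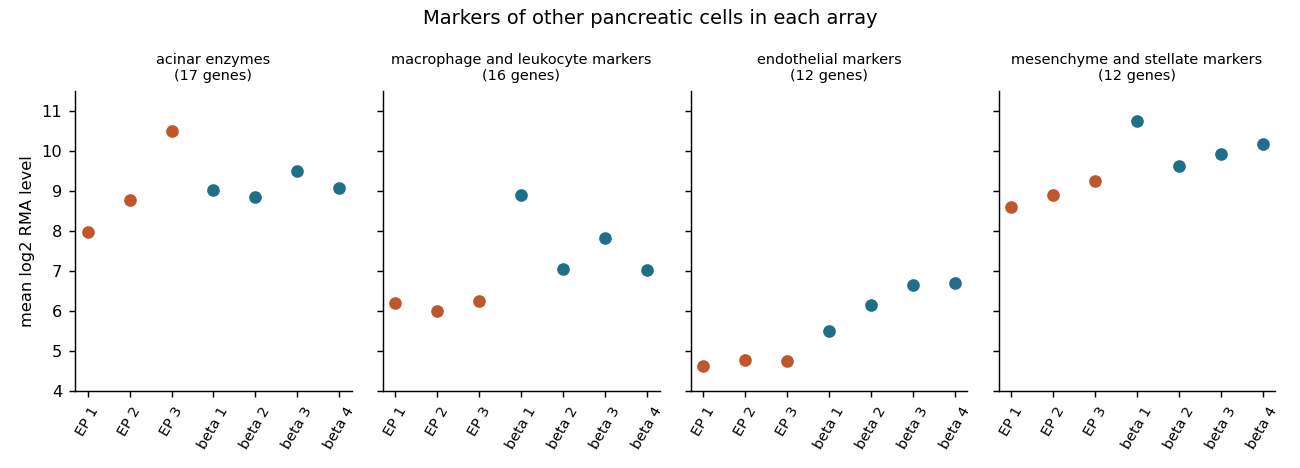
Mean log2 RMA level (y axis) of 4 marker lists in each of the 3 EP arrays (orange) and 4 E15 beta arrays (blue). EP array 3 is highest for acinar enzymes, beta array 1 for macrophage and mesenchyme markers, and all beta arrays exceed all EP arrays for the last 3 lists.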

How the data were processed

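RNA of sorted cells, amplified with NuGEN kits, was hybridised to Affymetrix mouse genome arrays. The authors normalized all 48 arrays together with RMA (justRMA, R 2.11.1 per the labels) and deposited log2 values for 45101 probes. No scanner files were used, and the number of arrays limits the precision. Probes above 100 on the linear scale in at least 1 of the 48 arrays were kept (32078). Means of 13 populations were fitted with limma 3.58.1 in R 4.3.3, and the contrast was E15 beta cells minus EPs. A call needed a log2 difference of at least 1 and a p under 0.05 after Benjamini-Hochberg adjustment. The code was tested on simulated data. Of all probes 34958 map to 1 gene, 932 to several and 9211 to none in the platform annotation, and the first were used. A gene is its brightest probe over the 48 arrays (14485 genes). Named are the 12 largest called changes each way without overlap, and members of 27 fixed lists. Members and lists were chosen with earlier results of these data known. Alternatives were fits on the 7 or the E15 arrays, the methods' t-test, other filters and scalings, array weights, a replicate block and leaving out each array. Same-numbered arrays did not deviate together (r = -0.28, 0.00 and -0.20), but deviations from means of 3 and 4 arrays cannot settle pairing. The main fit used no pairing. Promoter sequences were RefSeq's.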

Additional observations from a re-analysis of the deposited data

Results flagged for a closer look

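In 6 of 160 genes and list levels checked, 1 of the 4 E15 beta arrays lay far from the other 3. The gap to the nearest array took up more of the group's range than Dixon's critical value for 4 samples. Chance alone marks about 1 in 20 such groups, which is more than the 3.75% seen here. The share of the range was 0.912 for Ucn3, where beta array 4 was high (9.38 against 8.42 to 8.50), and 0.893 for Sema3e, a secreted semaphorin whose fall of 1.12 was not called without EP array 2 (-1.03, adjusted p = 0.052) or EP array 3 (-1.00, adjusted p = 0.056). It was 0.847 for Gm17767 and 0.846 for Ttll6, where beta array 2 was low (5.32). It was 0.841 for Derl3, where beta array 1 was low (8.83 against 9.15 to 9.22), and 0.864 for the endothelial gene Kdr, where beta array 1 was low (6.77 against 7.88 to 8.06). Each of these genes kept the direction of its difference without that array.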

How the results depend on the processing

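The number of called probes (3024) stayed within 1.5 times of its value under every alternative run. It was 3106 with the 7 arrays alone, 3115 with the E15 arrays, 2610 by the methods' t-test, 3061 of 45101 without a filter, 2500 of 24013 with a stricter one, 2912 after quantile scaling, 2970 after centring and 3382 with array weights. With the replicate block it was 2661, of which 2474 were also called without it. Leaving out 1 array gave 2767 (EP array 2) to 3040 (beta array 1) probes, 1557 to 1783 of them up and 1069 to 1294 down. The called genes of the lists numbered 79 to 85 up and 32 to 42 down, against 89 and 39. Of 133 called genes of the lists and largest changes, 103 kept call and direction in all 17 alternatives and none changed direction. The macrophage count of 11 was 7 with the 7 arrays, 7 with the stricter filter and 2 by the t-test, and the endothelial count of 10 was 4 with the stricter filter. The cause was not tested. Genes near or below 100 on the linear scale have differences that the array measures poorly.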

Other observations

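Gene families chosen after the values were seen showed mixed directions in several cases. Of 36 collagen genes tested 9 rose (25%) and 10 fell (27.8%). Col9a3, a chain of a fibril-associated collagen, fell by 3.11, Col9a1 by 2.51 and Col2a1 by 2.37, while Col6a3 rose by 2.74, Col6a1 by 2.23 and Col5a2 by 2.00. The mesenchyme markers given above rose in the same beta arrays, and their part in the collagen levels was not tested. Of 11 Wnt genes 3 fell (27.3%) and none rose, with Wnt9a at -2.89, Wnt3 at -2.69 and Wnt5b at -1.18. Means of 100 or less on the linear scale were found for 6 of the 11 in EPs and 8 in beta cells. Wnt3 was so low in both groups (means 6.52 and 3.84 in log2), so the size of its fall is uncertain. Of 20 semaphorin genes 5 fell (25%) and 2 rose (10%), against 4.56% and 6.7% of all genes.

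Of 255 solute carrier genes 30 rose and 12 fell, so 11.8% rose against 6.7% of all genes and 4.71% fell against 4.56%. Slc16a9, a monocarboxylate carrier relative, rose by 3.14, and Slc16a5 of the same family fell by 3.13. The sodium-calcium exchanger Slc24a2 rose by 2.67, and the nucleoside carrier Slc28a3 fell by 2.96. Of 59 potassium channel genes 9 rose (15.3%) and 2 fell (3.39%).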
